A study of Mus musculus with 3 samples.

Results

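Myh1, Myh2, Myh3, Myh4, Myh8 and Myh13 are the 6 skeletal muscle myosin heavy chain genes that lie side by side on mouse chromosome 11, and their transcripts were followed here in neurons of the developing neocortex. They are 6 of the 31053 genes in the deposited count tables, and they were selected on their UMI counts, shares of cells and co-detection in these same libraries, so that their levels, shares of cells and co-detection are given as a description with no test. Sst-Cre;RCE mice (SstCre/+;RCEfl/+) carry Cre at the Sst locus and a Cre-dependent EGFP reporter at the Rosa26 locus, so cells that have expressed somatostatin (Sst) at any earlier time, and their progeny, stay labelled. GFP-positive, DAPI-negative cells were sorted from neocortex and sequenced with the 10x Genomics 3' chemistry in 1 library per stage (embryonic day 16.5, E16.5, and postnatal days 1 and 5, P1 and P5), with several animals of each stage pooled and the same genotype in all libraries. Cells of 1 library are not replicates, so stages and cell classes were compared without a test, and each interval below is an exact 95% interval for counting error only. Intervals of levels, ratios and shares of UMIs take each UMI as independent. As some cells held several UMIs of a gene, these intervals are too narrow, and whether they overlap is not a test.

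Conventional myosin heavy chains carry the motor domain that binds actin and hydrolyses ATP, and a long coiled-coil tail that packs into the thick filament of the sarcomere. In skeletal muscle the genes of this cluster follow each other in time and by fibre type: Myh3 encodes the embryonic and Myh8 the perinatal form, Myh2, Myh1 and Myh4 encode the IIA, IIX and IIB forms of adult fast fibres, and Myh13 encodes the superfast form of extraocular muscle. In adult cortex, Myh8 and Myh4 are best known as parts of the names of transcriptomic types of Sst neurons (Sst Myh8 Etv1, Sst Myh8 Fibin, Sst Tac2 Myh4), among which are deep-layer Martinotti cells, interneurons whose axons ascend to layer 1.

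Cells with more than 700 detected genes and under 10% of UMIs from mitochondrial genes were kept, which left 9433 of 12324 barcodes (3952, 2501 and 2980 in the order of age), with median depths of 5577, 3293 and 3935.5 UMIs (unique molecular identifiers, each standing for 1 captured transcript). Cells with at least 1 UMI of Nos1, the neuronal nitric oxide synthase that marks long-range projecting Sst neurons, are called Nos1 cells. This rule asks for no other gene, and Nos1 cells also had raised levels of excitatory neuron genes in the E16.5 and P1 libraries (values below). Cells with no Nos1 UMI and at least 1 UMI of Nr2f2 (COUP-TFII, a nuclear receptor) are called Nr2f2 cells, and the remaining cells with a UMI of Lhx6, the LIM homeobox gene of interneurons from the medial ganglionic eminence, are called other Lhx6 cells. Lhx6 was detected in 76.0% to 84.0% of kept cells, Sst in 73.3% to 74.8%, Gad2 in 64.4% to 75.3% and Gad1 in 43.5% to 68.4%. The endothelial gene Cldn5 had no UMI, and Aqp4 (astrocytes) and Olig1 (oligodendrocyte lineage) were in at most 0.2% of cells. Pecam1, also an endothelial gene, was in 0.658% to 1.28% of cells, and the proliferation gene Mki67 in 2.28% to 3.42%. How many kept cells are of other types was not tested. The libraries shared 10 barcodes, which named 14 kept cells. In the kept cells 741 UMIs came from the 6 genes, of which 25 were in the E16.5, 110 in the P1 and 606 in the P5 library. The 10 cells with most of them held 12, 34 and 59 of these UMIs in the same order. Tissue handling also changed with stage (a Percoll step at P1 and P5, and an added trypsin and DNase step at P5), so stage, handling and library cannot be told apart.

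The 6 genes span 293.3 kb of chromosome 11 on the + strand (GRCm38), in the order Myh3 (chr11:67078300-67102291), Myh2 (chr11:67171027-67197517), Myh1 (chr11:67200052-67224575), Myh4 (chr11:67238029-67260446), Myh8 (chr11:67277124-67308634) and Myh13 (chr11:67321658-67371586). The gap between Myh3 and Myh2 is 68.735 kb, whereas the other neighbours are 2.534 to 16.677 kb apart. Each transcript is 6.016 to 6.149 kb long and has 39 to 41 exons. In the promoter sequences of RefSeq (GRCm38.p6, searched over the 250 bases before the annotated start), 4 of the 6 genes shared a pair of letter stretches. They are shown here because they set Myh1, Myh2, Myh4 and Myh8 apart from the outer genes Myh3 and Myh13 in sequence, and capitals mark the matches to TCAAATTATNNATAG and TTCTAATTATATCC (+ strand, N any base):
Myh2, chr11:67170851-67170918: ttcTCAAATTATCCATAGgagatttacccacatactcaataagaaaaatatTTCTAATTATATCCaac
Myh1, chr11:67199883-67199958: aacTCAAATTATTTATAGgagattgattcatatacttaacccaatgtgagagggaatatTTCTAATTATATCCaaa
Myh4, chr11:67237622-67237670: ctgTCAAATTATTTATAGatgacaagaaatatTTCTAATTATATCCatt
Myh8, chr11:67277017-67277086: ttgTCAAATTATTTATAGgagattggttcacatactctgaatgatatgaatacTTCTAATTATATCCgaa

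The spacing between both stretches was 33 bases in Myh2, 41 in Myh1, 14 in Myh4 and 35 in Myh8. Searched on both strands, each of these stretches was in 4 of the 32851 RefSeq promoters of full length (0.0122%), which were these 4 genes. The stretches were chosen after the sequences had been seen. The letters TAATTA, a common homeodomain core, lie within the second stretch and are in 4.84% of all promoters. The first stretch holds the MEF2 motif, bound by a family of muscle and neuronal transcription factors, in Myh1, Myh4 and Myh8 (starting at -211, -182 and -99 from the RefSeq start) but not in Myh2, and this motif is in 2.92% of all promoters. The annotated starts of Myh1, Myh4 and Myh13 in RefSeq differ from those of the GENCODE annotation that matches the count tables, so the windows of these genes are those of the RefSeq starts. The Myh13 window (chr11:67326853-67327102) lies inside the gene as annotated by GENCODE, which starts at chr11:67321658. The sequence before that GENCODE start was not searched, so the lack of both stretches in Myh13 holds for the RefSeq window alone. Nothing in the present libraries measures binding at these windows.

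Myh4, the IIB form, had the highest level of the cluster in Nr2f2 cells at P5. It had 3 UMIs among 984 Nr2f2 cells at E16.5 (0.421 CPM, UMIs of the gene scaled to a total of 1e6, interval 0.0869 to 1.23), 21 among 295 cells at P1 (9.65 CPM, 5.98 to 14.8) and 198 among 483 cells at P5 (71.3 CPM, 61.7 to 82.0). The intervals of the 3 stages did not overlap, and the level was 7.39-fold higher at P5 than at P1 (log2 ratio 2.76, 2.23 to 3.61, with 1 CPM added to both levels for the log2 value). In other Lhx6 cells Myh4 had 3 UMIs at each of the first 2 stages and 29 at P5 (4.31 CPM), and in Nos1 cells 7 UMIs at P5. At P5 its level was thus 16.5-fold higher in Nr2f2 than in other Lhx6 cells (log2 ratio 3.77, 3.48 to 4.66). A Myh4 UMI was present in 114 of the Nr2f2 cells at P5 (23.6%, 19.9% to 27.6%), and 46 of these cells held 2 or more, up to 7 in 1 cell. Under a stricter cell filter (over 1000 genes and under 5% mitochondrial UMIs) the few Nr2f2 cells left at P1 held no Myh4 UMI, which allows up to 14.6 CPM.

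Myh8, the perinatal form, was not detected in Nr2f2 cells at E16.5, where 0 UMIs allow at most 0.518 CPM. It had 22 UMIs at P1 (10.1 CPM, 6.34 to 15.3) and 113 at P5 (40.7 CPM, 33.5 to 48.9), a 4.02-fold higher level at P5 (log2 ratio 1.91, 1.34 to 2.74). With 3 UMIs put in place of the 0 at E16.5, the level was 24.0-fold higher at P1 and 96.6-fold higher at P5. These folds are not lower limits, because 0.518 CPM is more than 3 UMIs and the counting error at P1 and P5 is left out. Myh8 differed from Myh4 in how much of it lay outside the Nr2f2 cells. Other Lhx6 cells held 3 Myh8 UMIs in the E16.5 library, and later 15 (P1) and 54 (P5, 8.03 CPM), and the level in Nr2f2 cells at P5 was 5.07-fold higher than this (log2 ratio 2.21, 1.86 to 2.84), compared with 4.02-fold at P1 (log2 ratio 1.66, 1.00 to 3.06). Nr2f2 cells thus held 61.4% (54.0% to 68.5%) of the 184 Myh8 UMIs at P5, against 80.8% (75.3% to 85.6%) of the 245 Myh4 UMIs. These intervals did not overlap, but they take UMIs as independent, while part of the cells held several Myh4 UMIs. Of the 98 Nr2f2 cells with Myh8 at P5 (20.3%, 16.8% to 24.2%), 14 held 2 or more UMIs, and the highest number was 3.

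Myh1 and Myh13, whose proteins serve IIX fibres and extraocular muscle, were both present in Nr2f2 cells after birth. Myh1 had 4 UMIs at E16.5 (0.562 CPM, 0.153 to 1.44), 17 at P1 (7.81 CPM, 4.55 to 12.5) and 54 at P5 (19.4 CPM, 14.6 to 25.4), which made its P5 level 2.49-fold that of P1 (log2 ratio 1.21, 0.51 to 2.20). Myh13 had 0, 6 (2.76 CPM, 1.01 to 6.00) and 62 UMIs (22.3 CPM, 17.1 to 28.6), a P5 level 8.10-fold that of P1 (log2 ratio 2.63, 1.81 to 4.52). The intervals of the P5 to P1 ratio of these genes overlapped. At P5 the level of Myh1 was 5.45-fold higher (log2 ratio 2.16, 1.73 to 3.21) and that of Myh13 18.8-fold higher (log2 ratio 3.41, 3.16 to 5.51) in Nr2f2 cells than in other Lhx6 cells, where they had 24 and 8 UMIs. The share of all Myh13 UMIs in Nr2f2 cells at P5 was 84.9% (74.6% to 92.2%), that of Myh1 65.1% (53.8% to 75.2%). Myh13 at P1 had 6 UMIs in Nr2f2 and 3 in other Lhx6 cells, too few for a narrow ratio (log2 ratio 1.32, 0.23 to 5.08).

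Myh3 and Myh2 were close to the detection limit. Myh3, the embryonic form, had no UMI in Nr2f2 cells at E16.5 or P1 and 7 at P5 (2.52 CPM, 1.01 to 5.19), with 5 in other Lhx6 cells. Its ratio between the classes at P5 had an interval that included 0 (log2 ratio 1.01, -0.11 to 3.76). Myh2, the IIA form, had 0, 0 and 2 UMIs in Nr2f2 cells (0.720 CPM at P5, 0.0872 to 2.60) and 3 in other Lhx6 cells at P5, and no fold was computed. The Myh2 promoter window holds both stretches shown above, while the Myh13 window at its RefSeq start holds neither.

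**Figure D1:**
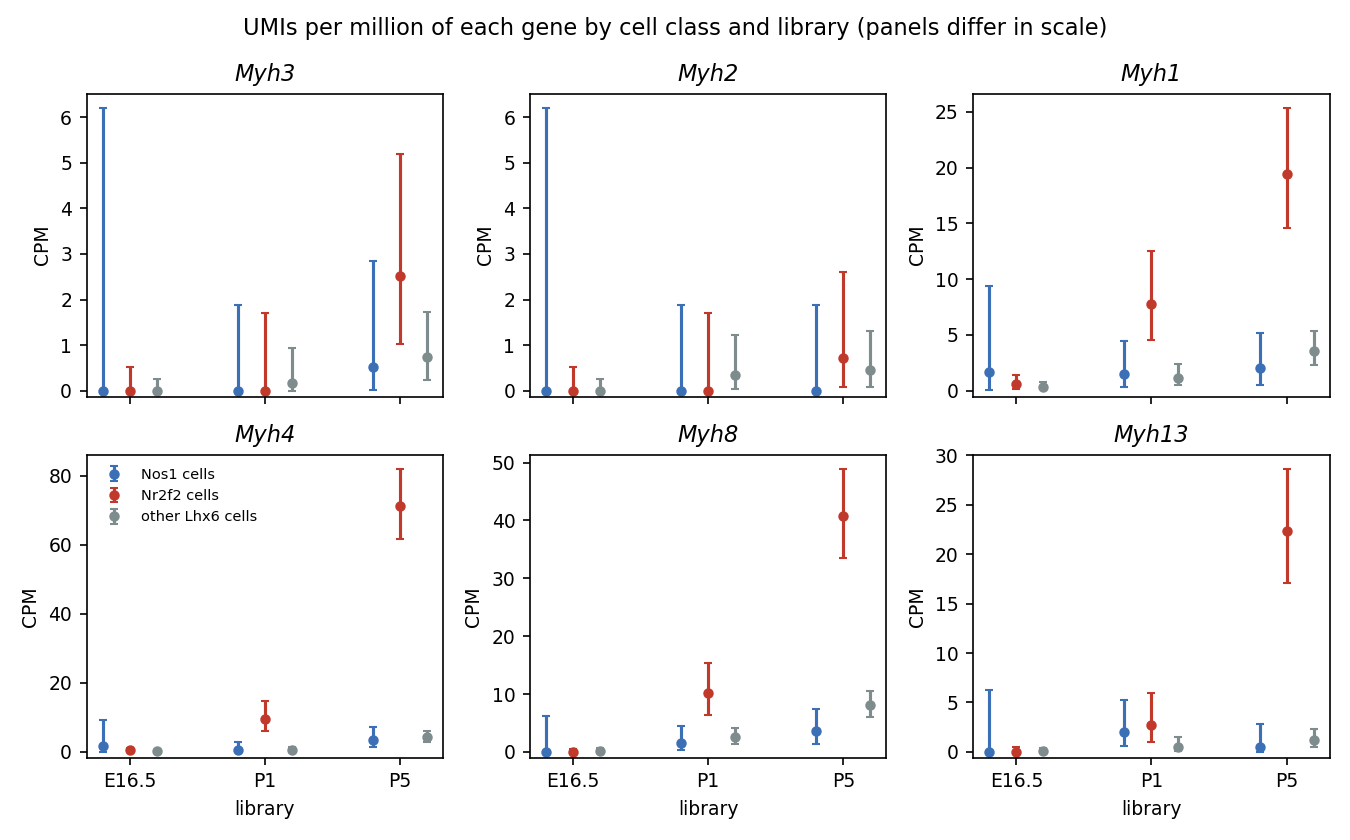
Each panel plots the summed level of 1 myosin gene (CPM, linear axis from 0, a scale of its own per panel) over the 3 stages in Nos1, Nr2f2 and other Lhx6 cells, with points for the level in 1 library and bars for its exact 95% Poisson interval. Myh4, Myh8, Myh1 and Myh13 of Nr2f2 cells reached 71.3, 40.7, 19.4 and 22.3 CPM at P5, above the other classes, while Myh3 and Myh2 stayed at 2.52 and 0.720 CPM.

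Levels were set side by side per kb of transcript. As the transcripts are of nearly equal length, and 3' end counting gives UMIs whatever the length, the order was the same in CPM. Nr2f2 cells at P5 held 11.9 CPM per kb of Myh4, 6.62 of Myh8, 3.68 of Myh13, 3.20 of Myh1, 0.418 of Myh3 and 0.118 of Myh2. Myh4 and Myh8 stood apart from their neighbours in this order, whereas the intervals of the levels of Myh13 and Myh1 overlapped, as did those of Myh3 and Myh2. The order was not the same at P1, where Myh8 (1.64 CPM per kb), Myh4 (1.60) and Myh1 (1.29) overlapped in their intervals and Myh13, at 0.455 CPM per kb, overlapped with Myh1. In other Lhx6 cells at P5 the first place was taken by Myh8 at 1.31 CPM per kb. With 3' end chemistry, the level of a gene also depends on how many of its reads map to 1 gene alone: 33.9% of the 50-base windows in the last 1000 bases of Myh2 and 33.0% of those of Myh1 were also found in another myosin heavy chain, against 20.4% for Myh4, 14.9% for Myh13, 14.5% for Myh8 and 12.4% for Myh3. Myh1 and Myh2 share the most with each other (26.2% of windows), so their levels are the least certain of the set. The antisense gene Myhas overlaps Myh1 by 13320 bases and 9430073C21Rik overlaps Myh2 by 1838 bases. Neither had a UMI in the 3 classes at P1 or P5.

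**Figure D2:**
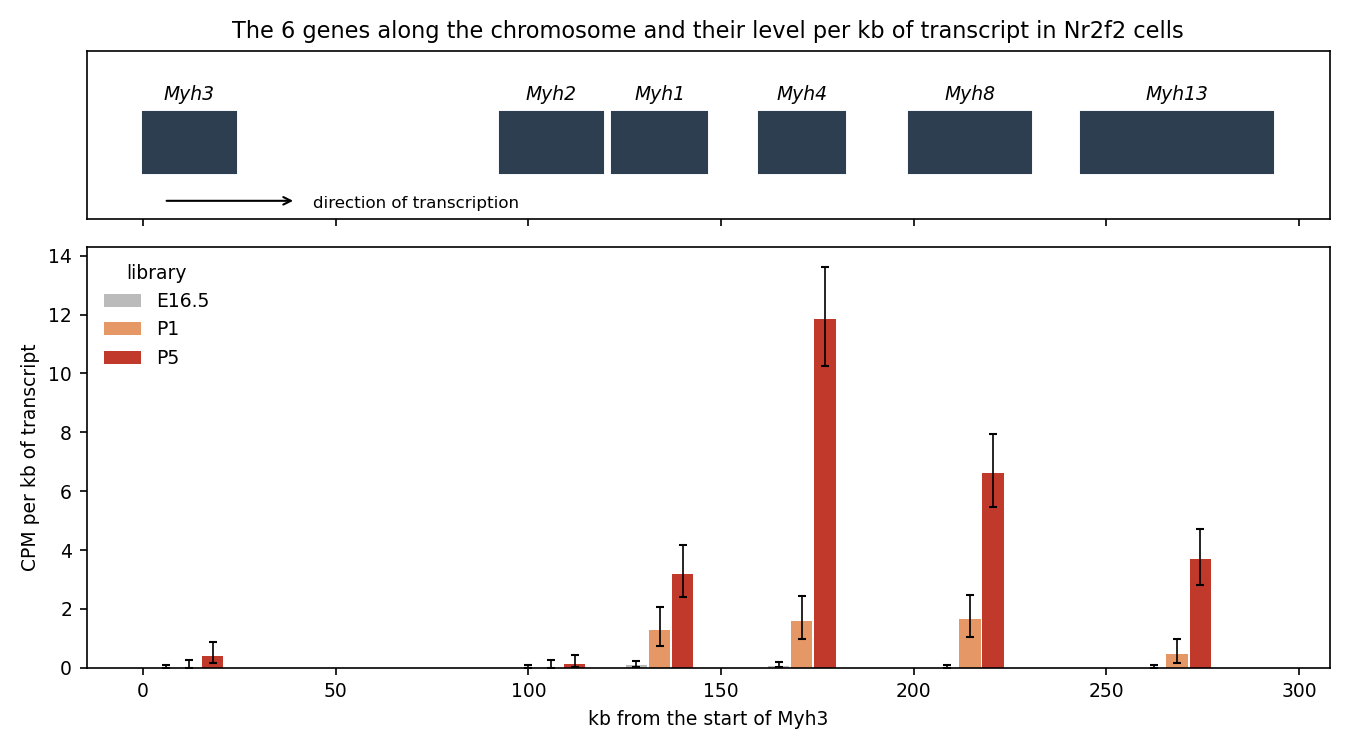
The upper panel draws the 6 genes to scale by distance in kb from the start of Myh3, and the bars below give their level per kb of transcript (CPM per kb, linear axis from 0) in Nr2f2 cells of the 3 libraries, with exact 95% Poisson intervals. At P5 the bars stood highest at Myh4 (11.9) and Myh8 (6.62) and were low at Myh3 (0.418) and Myh2 (0.118).

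Genes on the Myh3 side of the cluster, which start at -53.1 to -25.6 kb from the start of Myh3, were read beside it. No gene beyond Myh13 was read, so only the flank next to the barely detected Myh3 is covered. Adprm, which encodes an ADP-ribose/CDP-alcohol diphosphatase, had 10.8 CPM (7.29 to 15.4) in Nr2f2 and 7.28 CPM (5.39 to 9.63) in other Lhx6 cells at P5, and Sco1, a copper chaperone of cytochrome c oxidase, had 9.72 CPM (6.41 to 14.1) and 6.09 CPM (4.37 to 8.27). For both genes the intervals of the classes overlapped, at P5 as at P1. Tmem220 had 1 UMI in each class at P5.

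As a sum, the cluster amounted to 0.983 CPM (0.395 to 2.03) in Nr2f2 cells at E16.5, 30.3 CPM (23.5 to 38.6) at P1 and 157 CPM (143 to 172) at P5. Other Lhx6 cells had 0.814, 5.20 and 18.3 CPM (12, 31 and 123 UMIs), and Nos1 cells 3.37, 5.59 and 10.2 CPM (2, 11 and 20 UMIs). At P5 the Nr2f2 cells were 16.2% of the kept cells and gave 21.5% of the library's UMIs, but held 71.9% (68.2% to 75.5%) of the 606 cluster UMIs. At P1 they were 11.8% of cells with 19.8% of UMIs, and held 60.0% (50.2% to 69.2%) of the 110 cluster UMIs. The level in Nr2f2 cells was 8.59-fold higher than in other Lhx6 cells at P5 (log2 ratio 3.03, 2.81 to 3.40) and 5.84-fold higher at P1 (log2 ratio 2.34, 1.91 to 3.21). No difference was detectable at E16.5 with 7 and 12 UMIs (log2 ratio 0.13, -1.31 to 1.73).

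Set against all genes, a ratio was called when it passed 2-fold between groups that together held at least 10 UMIs of the gene. The calls used levels with 1 CPM added, which draws ratios of low levels towards 0 on the log2 scale, while folds in the text are without it. Between Nr2f2 and other Lhx6 cells at P5, 5 of the 6 genes could be called and all 5 were over 2-fold higher in Nr2f2 cells, 1 of them (Myh3) by a ratio whose interval included 0, where 2.21% of the 13107 genes tested were higher. At P1 3 of 3 were higher, with a background of 2.65%. Between Nr2f2 and Nos1 cells at P5, 4 of 4 were higher in Nr2f2 cells with a background of 6.55%, the sum by 15.4-fold, and at P1 3 of 4 with a background of 4.16%. These are the contrasts by which the genes were chosen, and the percentages are given as background alone. For Nos1 against other Lhx6 cells, a contrast in which Myh8 had 7 and 54 UMIs at P5, none of the 3 genes tested passed 2-fold in either direction (6.79% of all genes were lower and 4.38% higher in Nos1 cells), and Myh8 had a log2 ratio of -0.98 (-2.55 to -0.03). The sum was lower in Nos1 cells at P5 (log2 ratio -0.79, -1.60 to -0.15) and not distinguishable at P1 (log2 ratio 0.09, -1.04 to 1.14). With 2 UMIs asked for a class these values were -2.39 and -1.84, and the P1 ratio was also below 0 without the top 1% of cells by UMIs (-0.14) and with means of per-cell CPM (-0.32). Asking for 2 UMIs also changes the denominator, as cells with 1 Nr2f2 or 1 Nos1 UMI can then count as other Lhx6 cells. At P5 the cells with 1 Nr2f2 UMI held 75.2 CPM of the cluster. How much of the lower ratio comes from these cells was not tested.

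Between stages, Nr2f2 cells held 4 genes that could be called for P5 against P1, and 4 of 4 were over 2-fold higher at P5, where 9.02% of all genes tested were. For P1 against E16.5 it was 3 of 3 (background 13.4%), the sum being 30.9-fold higher. Other Lhx6 cells differed in the same direction: Myh4 had a log2 ratio of P5 to P1 of 1.82, Myh8 of 1.36 and Myh1 of 1.07, so that 3 of 4 genes passed 2-fold with a background of 9.86%. The sum there was 3.52-fold higher at P5 than at P1 (log2 ratio 1.64, 1.24 to 2.43), against 5.18-fold in Nr2f2 cells. In Nos1 cells the interval of the same ratio included 0 (log2 ratio 0.76, -0.26 to 2.08).

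A UMI of any of the 6 genes was found in 7 of 984 Nr2f2 cells at E16.5 (0.711%), in 39 of 295 at P1 (13.2%, 9.57% to 17.6%) and in 231 of 483 at P5 (47.8%, 43.3% to 52.4%). Under the stricter cell filter the share at P1 was 5.66% and the sum 19.7 CPM. The share was 0.457%, 1.84% and 6.77% in other Lhx6 cells, and 2.99%, 1.61% and 2.38% in Nos1 cells. Depth differed between the classes: at P5 the median was 5565 UMIs in Nr2f2 cells, 4369 in other Lhx6 cells and 3073 in Nos1 cells. After each cell had been thinned to 2000 UMIs, the share at P5 was 23.3% in Nr2f2, 3.30% in other Lhx6 and 1.45% in Nos1 cells, and at P1 5.76%, 0.640% and 0.843%. As a reading of free RNA, excitatory cells in the same libraries were used, which should lack these transcripts. They had at least 3 UMIs over Neurod6, Neurod2, Slc17a7, Slc17a6 and Tbr1, and more of these than of Gad1, Gad2 and Lhx6 together. These cells held 1 cluster UMI among 45 cells at E16.5 (2.22%, median depth 11905 UMIs), 1 among 42 at P1 (2.38%, 5710 UMIs) and 0 among 25 at P5 (which allows up to 13.7%, 3463 UMIs). The E16.5 shares in all classes, the P1 shares in Nos1 and other Lhx6 cells and the P5 shares in Nos1 and other Lhx6 cells lay within what these few excitatory cells allow. With so few cells that limit is wide (up to 13.7% at P5), so the comparison cannot tell free RNA from expression. Excitatory cells were also picked from all kept cells and can overlap with the classes. No expression above free RNA is therefore read from these shares. In the E16.5 library all 5 excitatory genes named above were over 2-fold higher in Nos1 than in other Lhx6 cells (median log2 ratio 4.43). The P1 library gave the same count, with a median of 2.94. In the P5 library 1 of these genes had enough UMIs, and its log2 ratio was 0.43. How many Nos1 cells are excitatory neurons was not tested. The part of free RNA was not tested in any class, Nr2f2 cells included. The UMIs of Nos1 and other Lhx6 cells are also the denominators of the ratios to those classes.

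**Figure D3:**
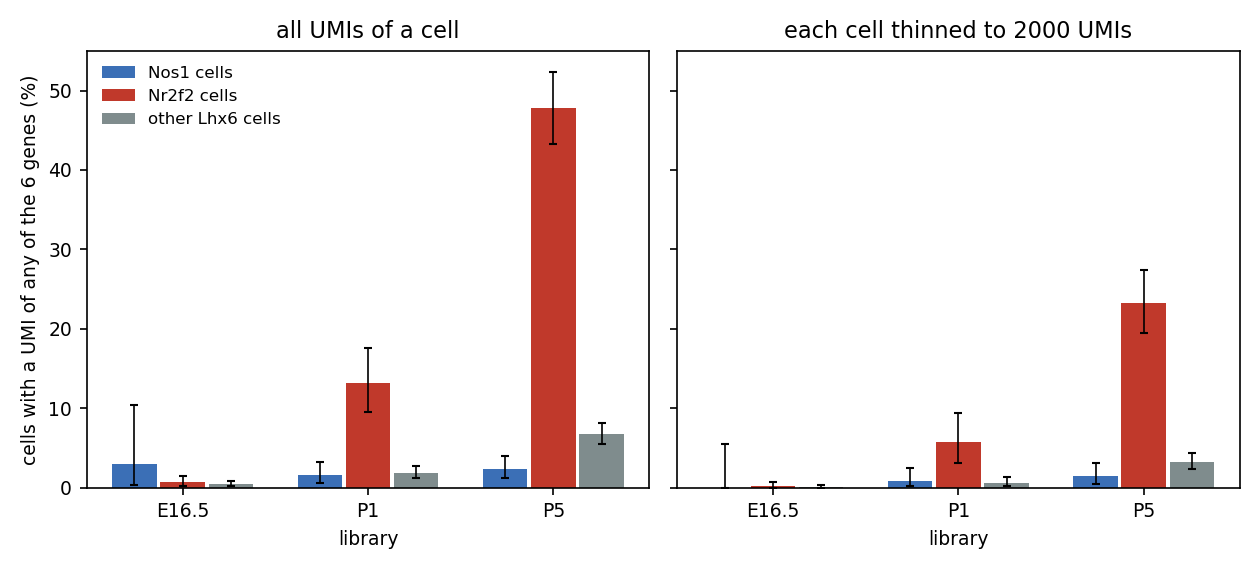
Bars give the share of cells (%, linear axis from 0) with a UMI of any of the 6 genes in Nos1, Nr2f2 and other Lhx6 cells at each stage, from all UMIs of a cell (left) and after thinning each cell to 2000 UMIs (right), with exact 95% binomial intervals. Nr2f2 cells stood above the other classes at P1 (13.2%, or 5.76% thinned) and P5 (47.8%, or 23.3% thinned).

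The class rule takes 1 Nr2f2 UMI as enough, so the level was also read on both sides of that threshold. At P5 the sum was 18.3 CPM in other Lhx6 cells, which have no Nr2f2 UMI, 75.2 CPM in the 158 cells with 1 Nr2f2 UMI, 142 CPM in the 79 cells with 2 and 202 CPM in the 246 cells with 3 or more, with a UMI of the cluster in 28.5%, 46.8% and 60.6% of the last 3. The median depth of these groups was 4699.5, 5217 and 6219.5 UMIs. Myh4 was at 31.8, 50.6 and 96.4 CPM and Myh8 at 19.1, 33.7 (18.4 to 56.6) and 53.3 CPM (42.5 to 65.9) in this order. Myh13 was at 11.5, 33.7 (18.4 to 56.6) and 24.7 CPM (17.6 to 33.8). The intervals of the last 2 groups overlapped for Myh13 and for Myh8, so no order of these groups is read for either gene. At P1 the cluster was concentrated in the same direction, and whether more so than at P5 was not tested. There 59 of the 66 cluster UMIs, and all 21 Myh4 UMIs, lay in the 123 cells with 3 or more Nr2f2 UMIs (49.5 CPM, 37.7 to 63.8), against 4 cluster UMIs in the 132 cells with 1 (5.97 CPM, 1.63 to 15.3). The median depth at P1 was 10047 UMIs in the first and 3716 in the second, and its part in the shares of cells was not tested.

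**Figure D4:**
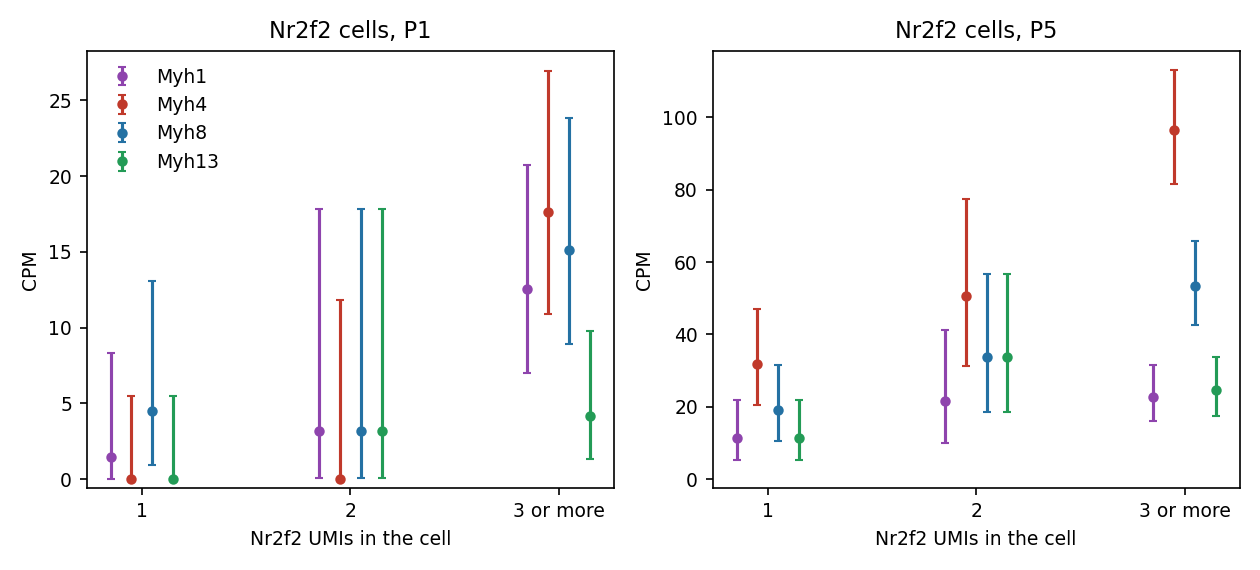
Points show the summed level (CPM, linear axes from 0) of Myh1, Myh4, Myh8 and Myh13 in Nr2f2 cells with 1, 2 or at least 3 Nr2f2 UMIs at P1 and P5, with exact 95% Poisson intervals. Myh4 stood at 31.8, 50.6 and 96.4 CPM at P5, while at P1 its 21 UMIs were all in cells with at least 3 Nr2f2 UMIs.

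The signal was also present in Nr2f2 cells without an Lhx6 UMI. Of the Nr2f2 cells at P5, 411 also had an Lhx6 UMI, and of these 50.4% had a UMI of the cluster (157 CPM). The 72 cells without Lhx6 had one in 33.3% (159 CPM), at a median depth of 3174.5 against 5807 UMIs. After thinning, the shares were 22.4% and 30.2%.

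More than 1 gene of the cluster was found in the same cell in part of the Nr2f2 cells at P5. Of the 483 Nr2f2 cells, 252 had no gene of the cluster, 153 had 1, 61 had 2 and 17 had 3, which makes 78 cells (16.1%, 13.0% to 19.7%) with at least 2. At P1 it was 9 of 295 (3.05%), and at E16.5 0 of 984, which allows up to 0.374%. With each cell thinned to 2000 UMIs the share was 2.86% at P5 and 0% at P1. Joint detections were counted over pairs of genes. A cell with 3 genes, as in 17 cells at P5, counts for each of its pairs, so the pairs are not independent observations. There were 112 joint detections at P5, compared with 80.9 if the genes had been distributed independently over the cells and 90.7 if independently within 5 bins of depth. The excess over the depth-binned expectation was thus 1.23-fold, and 8 of the 9 pairs for which at least 1 cell was expected lay above their expectation. At P1 11 joint detections compared with 5.37 expected within depth bins (2.05-fold), and in other Lhx6 cells at P5 8 compared with 3.32 (2.41-fold).

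**Figure D5:**
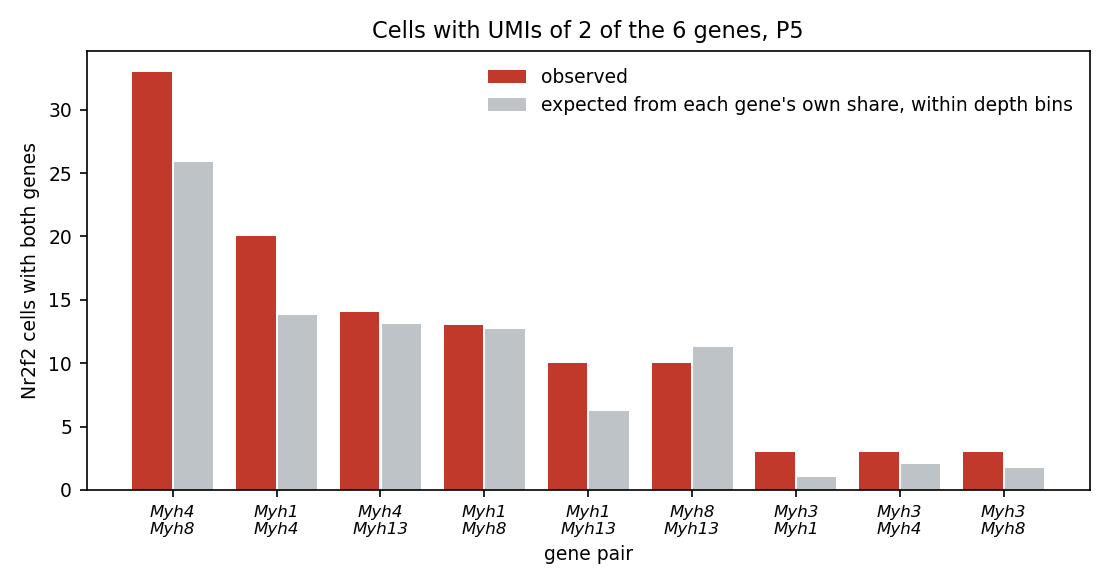
For each pair of cluster genes with at least 1 joint cell expected, paired bars give the number of Nr2f2 cells at P5 that held both genes (red) and the number expected from each gene's own share within depth bins (grey), on a linear axis from 0. Myh4 with Myh8 was the most frequent pair (33 observed, 25.8 expected), and Myh8 with Myh13 was the pair below its expectation (10 and 11.3).

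The pair of Myh4 and Myh8 was seen in 33 cells against 25.8 expected, and Myh1 with Myh4 in 20 against 13.8. Myh1 with Myh13 was in 10 cells against 6.26. For Myh4 with Myh13 (14 against 13.1) and Myh1 with Myh8 (13 against 12.7) the numbers were nearly equal, and Myh8 with Myh13, the pair at the 3' end of the cluster, was in 10 against 11.3. The few Myh3 cells shared 3 cells each with Myh1, Myh4 and Myh8, where 1.02, 2.05 and 1.76 were expected.

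The genes that name adult Sst types with or beside Myh8 and Myh4 were read in the same Nr2f2 cells at P5. Chrna2, the nicotinic receptor subunit of deep-layer Martinotti cells, was in 55 cells, of which 22 held Myh4 (14.0 expected within depth bins), 14 Myh8 (11.6 expected), 10 Myh13 (6.18 expected) and 7 Myh1 (5.94 expected). Fibin, a secreted factor first described in fin bud initiation, was in 30 cells, of which 9 held Myh8 (6.16 expected), 3 Myh4 (7.21 expected), 5 Myh1 (3.29 expected) and 5 Myh13 (3.42 expected). Etv1, an ETS transcription factor, was in 27 cells, with Myh8 in 5 (5.40 expected), Myh4 in 4 (5.42 expected), Myh13 in 3 (2.88 expected) and Myh1 in 0 (2.80 expected). Tac2, the neurokinin B precursor, was in 9 cells, of which 2 held Myh8 (2.53 expected) and 1 each held Myh4 (2.51 expected), Myh1 (1.70 expected) and Myh13 (1.18 expected). The numbers are small, and most differ from their expectation by a few cells.

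Marker lists of the main Sst neuron types were compared between the 231 Nr2f2 cells at P5 with a UMI of the cluster and the 252 without. Median depth was 6139 and 5151.5 UMIs in these groups, and the median log2 ratio of all genes was -0.01, with 1.45% of genes over 2-fold higher and 2.26% over 2-fold lower. Among Martinotti genes, 13 of 20 had a ratio above 0 and the median was 0.12, with none over 2-fold higher and 2 over 2-fold lower. Chrna2 was at 0.56 (-0.15 to 1.34) and the extracellular matrix gene Reln at 0.27, while Olfm3 was at -1.83 and the serotonin receptor gene Htr1a at -1.35. The list holds Nr2f2 itself (0.33), by which the cells were chosen, and genes that the study took from these libraries. Of the non-Martinotti genes 1 of 13 was above 0, with a median of -0.61 (Thsd7a at -1.38, Lrp1b at -0.95, Cntnap2 at -0.61), and of the long-range genes 2 of 9, with a median of -0.36 (the neuropeptide gene Npy at -0.69).

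In other Lhx6 cells at P5, 99 cells had a UMI of the cluster and 1364 had none, and the median log2 ratio of all genes was -0.02. The Martinotti genes had a median of -0.04 with 9 of 19 above 0, and Etv1 was at -2.24 and Cdh12, a cadherin, at 1.11. The non-Martinotti genes had a median of -0.13 with 6 of 18 above 0. The long-range list had a median of -0.80 with 1 of 13 above 0, and Pou3f2, a POU homeodomain factor, had 0 UMIs in the cells with and 102 in the cells without the cluster. For no list was the difference between these classes tested.

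The genes most different between the 98 Nr2f2 cells with Myh8 and the 385 without at P5 were named by a rule on size (the 15 highest and 8 lowest log2 ratios of genes reaching 20 CPM in either group and 30 UMIs in both together). Median depth was 6512.5 and 5416 UMIs, and 1.76% of genes tested were over 2-fold higher and 4.87% lower. The 15 highest were at 1.11 to 1.57, led by 1700052K11Rik, with 15 UMIs in each group, the nuclear envelope phosphatase subunit gene Cnep1r1 (1.42) and Aimp2 (1.37), a scaffold of the aminoacyl-tRNA synthetase complex. The lower side held larger ratios. Car8, a carbonic anhydrase-related protein, had 1 UMI in cells with Myh8 and 52 in cells without (1.53 and 24.5 CPM, log2 ratio -3.33), Pcp2, a modulator of G protein signalling, 1 and 43 (log2 ratio -3.07), and Pdyn, the precursor of the dynorphin opioid peptides, 16 and 192 (log2 ratio -1.85). The remaining 5 lowest genes, among them the Notch effector Rbpj (-1.67), were at -1.61 to -1.73.

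Car8, Pcp2 and Pdyn were also read in the 133 Nr2f2 cells that had another gene of the cluster but no Myh8. Those cells and the 252 with no gene of the cluster make up the 385 cells without Myh8 by which the names were chosen, so the values are a description of that choice. Car8 had 1 UMI in cells with Myh8 (1.53 CPM), 6 in cells with another gene of the cluster (7.48 CPM) and 46 in cells with none (34.9 CPM). Pcp2 had 1, 2 and 41 UMIs (1.53, 2.49 and 31.1 CPM) in the same order. Pdyn, in contrast, was highest in the middle group, with 16, 98 and 94 UMIs (24.4, 122 and 71.2 CPM). The names depended on the settings: 0 of the 15 higher and 0 of the 8 lower genes were named again when all 3 classes were pooled, when cells were thinned, or when 2 Myh8 UMIs were asked for. With a pseudocount of 10 CPM it was 9 of 15 and 6 of 8, and with no CPM minimum and at least 10 UMIs 0 of 15 and 1 of 8.

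Other myosin heavy chains were read as a comparison within the family. Myh10, which encodes non-muscle myosin IIB and is widely used in neurons, had 299 UMIs in Nr2f2 cells at P5 (108 CPM) and a log2 ratio to other Lhx6 cells of 0.14. Myh9 (non-muscle IIA) was at 0.48, Myh14 (non-muscle IIC) at 0.42, Myh7b at 0.37 and Myh7, the slow and beta-cardiac form, at -0.68. The smooth muscle gene Myh11 was the exception at 1.74 (1.15 to 3.36, 23 against 12 UMIs). Of the 8 other heavy chains, 6 could be tested at P5, with 1 over 2-fold higher in Nr2f2 cells and a median of 0.39, and at P1 4 could be tested, with 1 higher (Myh14, 1.03) and a median of 0.20. Between P1 and P5 in Nr2f2 cells, Myh14 had a log2 ratio of 2.68 and Myh11 of 2.67 towards P5, and Myh10 of -0.46. Myh14 was also higher at P5 in other Lhx6 cells (3.29).

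Most other genes of the muscle programme were at or near 0 UMIs. Of 24 genes of skeletal muscle, the determination factors Myod1 and Myf5 and the fusion gene Mymk had no UMI in any kept cell, and 12 had 1 to 10 UMIs over all kept cells, among them Ckm (1), Tnnt3 (1), Des (2) and Myog (3). The 9 genes above that were led by Neb (2734 UMIs), which encodes the thin filament protein nebulin, Acta1 (801), the skeletal alpha-actin, and Actn2 (122), an alpha-actinin that neurons also use. In Nr2f2 cells the summed level of the 24 genes was 53.7 CPM at E16.5, 101 CPM in the P1 library and 61.2 CPM at P5, compared with 67.8, 202 and 68.5 CPM in other Lhx6 cells. Neb alone gave 36.1, 74.0 and 6.48 CPM in Nr2f2 and 50.9, 179 and 22.6 CPM in other Lhx6 cells, in the order of age. The sum, in which Neb weighs most at E16.5 and P1, did not follow the level of the cluster over classes or stages. Acta1 was higher at the later stages in both classes (11.4, 17.9 and 26.6 CPM in Nr2f2, and 11.7, 13.4 and 26.9 CPM in other Lhx6 cells). A sum without Neb was not computed. Between these classes at P5, 0 of the 9 genes tested were over 2-fold higher in Nr2f2 cells and 2 were lower, where 3.98% of all genes were lower, with a median log2 ratio of 0.12. The myosin light chains (8 tested, median -0.09) and the chaperones of myosin folding (2 tested, median -0.10) were close to 0 as well.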

How the data were processed

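The authors deposited UMI counts per gene and cell from 10x Genomics libraries, made with Cell Ranger (3.1.0 for E16.5 and P5, 3.0.2 for P1) on GRCm38, with no normalization. The deposited count matrices were read as they are. Cells with over 700 genes and under 10% mitochondrial UMIs were kept, 2 of the 4 criteria the study states. Its minimum of log UMIs was run as an alternative, and its minimum share of confidently aligned reads was not used here. Its own count of cells was smaller than the 9433 left here. No doublet caller was run. Counts were summed per class and library with Python 3.11.15, NumPy 2.4.6 and SciPy 1.17.1 and given as CPM with exact Poisson intervals. Shares have Clopper-Pearson intervals, and ratios a conditional binomial interval that leaves out the 1 CPM pseudocount. With 1 library per stage no test was possible. Named genes are the 6 members and the 15 highest and 8 lowest companions of Myh8. Members and lists were chosen with earlier results of these data known. The calculations were tested on simulated data. Alternatives covered the cell filter, class threshold, depth, denominator, scaling, possible doublets, shared barcodes, pseudocount and count filter, some of them added after the data had been seen.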

Additional observations from a re-analysis of the deposited data

Results flagged for a closer look

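Barcodes removed by the cell filter held 40 UMIs of the 6 genes at P1 and 10 at P5, and none at E16.5, and none of them enters the comparisons above. At P1 the 1939 removed barcodes amounted to 8.53 CPM (exact 95% Poisson interval 6.09 to 11.6) of these genes. Of the 40 UMIs, 27 lay in the 236 removed barcodes with Nr2f2 and no Nos1 (32.6 CPM, 21.5 to 47.4), where the kept Nr2f2 cells had 30.3 CPM. The removed Nr2f2 barcodes had a median mitochondrial share of 14.1%. Their UMIs were 11 of Myh4, 8 of Myh1, 7 of Myh13 and 1 of Myh8, while the kept Nr2f2 cells held 21, 17, 6 and 22. At P5 the 426 removed barcodes amounted to 18.4 CPM (8.84 to 33.9). No difference between the libraries was tested, as each stage has 1 library.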

How the results depend on the processing

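The Nr2f2 to other Lhx6 ratios at P1 and P5, for Myh1, Myh4, Myh8, Myh13 and the sum, were above 0 in the 106 alternatives that gave a value (log2 0.28 to 4.12). A stricter cell filter gave none for the single genes at P1, where few UMIs were left and Nr2f2 cells held no Myh4. With this filter of over 1000 genes and under 5% mitochondrial UMIs, the ratio at E16.5 turned to -0.094 for the sum and -0.29 for Myh1, and at P1 Nr2f2 cells had 19.7 CPM of the sum, 11.8 CPM without Myh8 and a share of 5.66%. With no cell filter the Myh8 share at P1 was 3.58%. With 2 UMIs asked for a class, Myh8 was at 49.4 CPM at P5 and in 10.5% (P1) and 25.7% (P5) of Nr2f2 cells, the sum at 43.6 and 190 CPM and 23.3% and 57.5%, the sum without Myh8 at 30.5 and 140 CPM, co-detection at 6.40% and 22.5%, and the Nos1 ratio of the sum at -1.84 (P1, turned) and -2.39 (P5). Asking for 2 UMIs also moves cells with 1 Nr2f2 or 1 Nos1 UMI into the other Lhx6 cells, the denominator of that ratio. The P1 Nos1 ratio of the sum also turned without the top 1% of cells (-0.14) and with means of per-cell CPM (-0.32), as did Myh1 (-0.047). Those means gave 6.01, 20.3 and 14.3 CPM at P1 for Myh8, the sum and the sum without Myh8. Thinning gave Myh8 shares of 2.47% and 7.91%, shares of any gene of 0.214% (E16.5), 5.76% and 23.3%, and co-detection of 0% and 2.86%. A pseudocount of 10 CPM gave ratios of 0.68 and 1.49 for Myh8 and 1.41 and 2.56 for the sum. Without mitochondrial and ribosomal genes in the total, the P5 sum was 176 CPM, or 130 without Myh8. Companions that turned were Elovl5 (-0.34) and H2-D1 (-0.041) on thinning, and Hps3 (-3.51), Rrp1b (-3.83) and Plaa (-0.21) with 2 Myh8 UMIs. No paired analysis was possible because each stage has 1 library, and for the same reason no replicate could be left out. Counts of 25 UMIs at E16.5 limit every value there.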
